A study of Homo sapiens with 36 samples.

Results

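Internal single-block m6A peaks are stretches of RNA that carried N6-methyladenosine (m6A) signal within the body of a protein-coding gene, in 1 unbroken block of the genome. They were taken from 4 deposited tables of peaks whose m6A signal differed between shRNA and scramble cells, 1 table for each shRNA. A peak was kept when its table gave it exactly 1 block, when its name was a protein-coding gene of the deposited expression table, and when it lay more than 300 bases from the gene's 5′ end and more than 1000 bases from its 3′ end. The rule used position and gene type, and no measured effect. It kept 22312 of 37709 listed peaks (59.2%), namely 7704 with ALKBH5 shRNA-1, 11433 with ALKBH5 shRNA-2, 1254 with RBM33 shRNA-1 and 1921 with RBM33 shRNA-2. Peaks of different tables that overlapped by at least 1 base on the same strand of the same gene were joined, which left 19306 separate regions in 6749 host genes. The other listed peaks were 6128 internal peaks with several blocks, 2265 at a 5′ end, 4220 at a 3′ end and 2784 outside the listed protein-coding genes.

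UM-SCC-1 is a long-established culture of squamous carcinoma cells of the head and neck. Retroviruses carried ALKBH5 shRNA-1, ALKBH5 shRNA-2 or the scramble of the ALKBH5 set, and RBM33 shRNA-1, RBM33 shRNA-2 or the scramble of the RBM33 set. All of the cells, scramble cells included, spent 4 days in blasticidin at 10 ug/mL. The labels list 36 samples in 12 groups of 3, made up of 18 m6A-seq libraries, in which methylated RNA fragments were enriched, and 18 RNA-seq libraries. RNA values were analysed for 15 of the RNA-seq libraries: 2 for ALKBH5 shRNA-1, 2 for ALKBH5 shRNA-2, 3 for the ALKBH5 scramble, 2 for RBM33 shRNA-1, 3 for RBM33 shRNA-2 and 3 for the RBM33 scramble. The sample titles name shRNA where the design text speaks of siRNA, and the titles are followed. Nothing in the labels ties a replicate to its own culture; a p-value here therefore reflects the scatter of these libraries, which may be technical.

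m6A is written onto adenosines of RNA by a complex built around METTL3 and METTL14, usually within the sequence context called DRACH, and it is removed by the demethylases ALKBH5 and FTO. Proteins of the YTH family bind the mark and affect the splicing, export, translation and decay of the RNA. RBM33, which also binds RNA, is known as a partner of ALKBH5. The mark is known to be densest near stop codons and in long internal exons. A block inside a gene can lie in such an exon or in an intron, and since no exon annotation was used, exons and introns were not told apart here.

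The files give m6A as 1 effect and 1 p-value per peak, both made by the authors, and no m6A value per library. An effect is the natural logarithm of shRNA over scramble, so an effect of 0.69 is close to a doubling, and a positive effect means more m6A signal in the shRNA cells. Each table lists only peaks past a threshold: the smallest absolute effect among the internal single-block peaks was 0.50 in each table. The largest listed p-value was 0.00603 with ALKBH5 shRNA-1, 0.00826 with ALKBH5 shRNA-2, 0.000681 with RBM33 shRNA-1 and 0.00108 with RBM33 shRNA-2. The largest listed p-value thus differed between the tables, and numbers of peaks are not compared between them. The sources used here do not say how many peaks the authors tested, so no share of tested peaks can be stated. No scatter between m6A libraries can be given either. Spans of the genes are those of the deposited expression table, and no strand of a peak differed from that of its gene (0 mismatches).

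Genomic sequence was available for the peaks that fall in RefSeq promoter windows (250 bases before to 50 bases after a gene's start, GRCh38.p14) or in RefSeq miRNA hairpins. Of 20101 distinct peaks, 173 (0.861%) lay wholly inside a promoter window, 87 in a window of the host gene itself and 86 in that of another gene. These are shown because they let the RNA strand under a peak be read for the DRACH motif, in which D is A, G or T, R is A or G and H is A, C or T. GGACT is the best-known form of that motif, and each GGACT is also counted under GGAC and DRACH. The sites below hold GGACT in capitals, on the strand of the host gene, in 6 peaks of 50 bases that lie in a window of another gene.
HMOX2, chr16:4476400-4476424, plus strand, effect 2.14: tgggctgcagGGACTgcggcgcctg
WDR37, chr10:1056895-1056919, plus strand, effect 1.79: cgcgtcgtagGGACTcactggcggt
CCDC142, chr2:74482931-74482954, minus strand, effect 1.43: cgcgactcccGGACTggagaaaac
CAPN2, chr1:223774897-223774921, plus strand, effect 0.53: aatcagccaaGGACTaagcttccat
FBXO2, chr1:11654398-11654422, minus strand, effect -3.01: gacagcgccgGGACTcgccgccccg
PIP5K1A, chr1:151198645-151198660, plus strand, effect -0.77: gGGACTtttcatgcct
The first 5 effects come from the ALKBH5 shRNA-1 table and that of PIP5K1A from the ALKBH5 shRNA-2 table. The motif stood under peaks with positive and with negative effects.

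Over the 163 of these peaks that were 50 bases long, DRACH was found on the host strand in 80 (49.1%) and on the other strand in 82 (50.3%), against 50.5% of 209658 tiles of 50 bases cut from all promoter windows. GGAC was found on the host strand in 41 peaks (25.2%) and on the other strand in 27 (16.6%), against 17.1% of the tiles. GGACT was found on the host strand in 11 peaks (6.75%) and on the other strand in 7 (4.29%), against 4.52% of the tiles. A match is a description of the letters and not a methylated site. Windows around starts are also a small and unusual part of the internal peaks.

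Internal peaks also ran through miRNA hairpins that sit in host genes: 6 hairpins of 1562 were overlapped on their own strand, and in 3 of them the covered part held DRACH (capitals, RNA letters).
AMH peak over MIR4321, chr19:2250686-2250710, plus strand: uguuagcgguGGACCgcccugcggg
STIM1 peak over MIR4687, chr11:3856103-3856120, plus strand: acuUGACCuuuggcuguu
UCK2 peak over MIR3658, chr1:165907921-165907944, plus strand: uauuuaagaAAACAccauggagau
In the authors' deposited tables the AMH peak had an effect of 1.20 and the STIM1 peak of 0.96 with ALKBH5 shRNA-1, and the UCK2 peak had an effect of -0.75 with ALKBH5 shRNA-2. AMH is described again below among the host genes whose RNA differed most. The other hairpins, under peaks of BUD31, CDC37 and TECR, held no DRACH in the covered part.

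The effects of the internal single-block peaks were mostly positive in each table, and the tables differed in how many were negative. A negative effect was listed for 2821 of 7704 peaks (36.6%) with ALKBH5 shRNA-1 and 3490 of 11433 (30.5%) with ALKBH5 shRNA-2. At absolute effects of at least 1 these shares were 33.9% and, with ALKBH5 shRNA-2, 17.5%. A negative effect was listed for 162 of 1254 peaks (12.9%) with RBM33 shRNA-1 and 284 of 1921 (14.8%) with RBM33 shRNA-2. The median effect was 0.71, 0.83, 0.96 and 0.94 in that order of tables. Among the negative peaks the median was -0.93, -0.79, -0.93 and -0.87. Absolute effects of at least 1 made up 46.2%, 46.4%, 51.7% and 49.9% of the peaks. Between 88.6% and 96.1% of the peaks were 50 bases long, the width of 1 bin, and the longest had 400 bases.

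**Figure D1:**
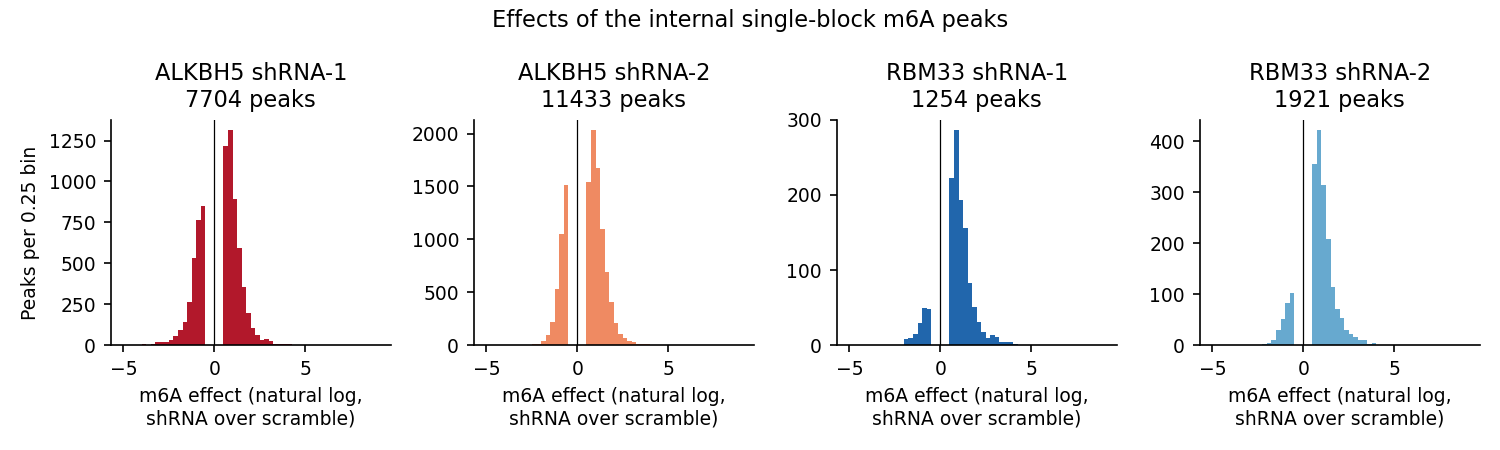
Histograms of the m6A effect (natural log of shRNA over scramble, in bins of 0.25) of the internal single-block peaks, 1 panel for each table with a y axis of its own; the vertical line is 0. The gap around 0 is the authors' threshold at an absolute effect of 0.5, and the negative side holds 36.6%, 30.5%, 12.9% and 14.8% of the peaks from left to right.

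For internal peaks with several blocks, which span a splice junction, the negative share in the same tables was 14.2% with ALKBH5 shRNA-1, 4.85% with ALKBH5 shRNA-2, 6.93% with RBM33 shRNA-1 and 5.69% with RBM33 shRNA-2. Over all listed peaks the values were 35.3%, 27.5%, 12.4% and 12.5%. With 1 value per peak and peaks that share a gene, the differences between classes have no replicate test and are given as descriptions. A 95% Wilson interval that covers counting error only ran from 35.5% to 37.7% for the negative share with ALKBH5 shRNA-1 and from 29.7% to 31.4% with ALKBH5 shRNA-2. It treats peaks as independent, which peaks of 1 gene need not be.

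By position in the gene, the ALKBH5 shRNA-1 table had its largest negative share next to the 5′ limit. There 59.3% of 563 peaks were negative between 300 and 1000 bases from the gene's 5′ end, and 47.7% of 654 peaks were negative between 1000 and 3000 bases. The share was 41.8%, 35.1% and 29.95% in the next bands, the last of them beyond 30000 bases with 3502 peaks. In the ALKBH5 shRNA-2 table the same bands ran 28.4%, 26.1%, 23.8%, 28.6% and 35.0%. The band nearest the 5′ limit thus had the highest share of its table with ALKBH5 shRNA-1 and not with ALKBH5 shRNA-2; the difference between the tables was not tested. In the RBM33 tables the share stayed between 7.93% and 19.7% in every band of the distance from the 5′ end. Towards the 3′ end, between 1000 and 3000 bases from it, 47.4% of 1719 peaks were negative with ALKBH5 shRNA-1 and 38.5% of 2697 with ALKBH5 shRNA-2, against 31.1% and 22.4% between 10000 and 30000 bases. Over single peaks the Spearman correlation between effect and distance from the 5′ end was 0.13 (7704 peaks), -0.07 (11433 peaks), 0.03 (1254 peaks) and -0.08 (1921 peaks); peaks of 1 gene share its span and its RNA.

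**Figure D2:**
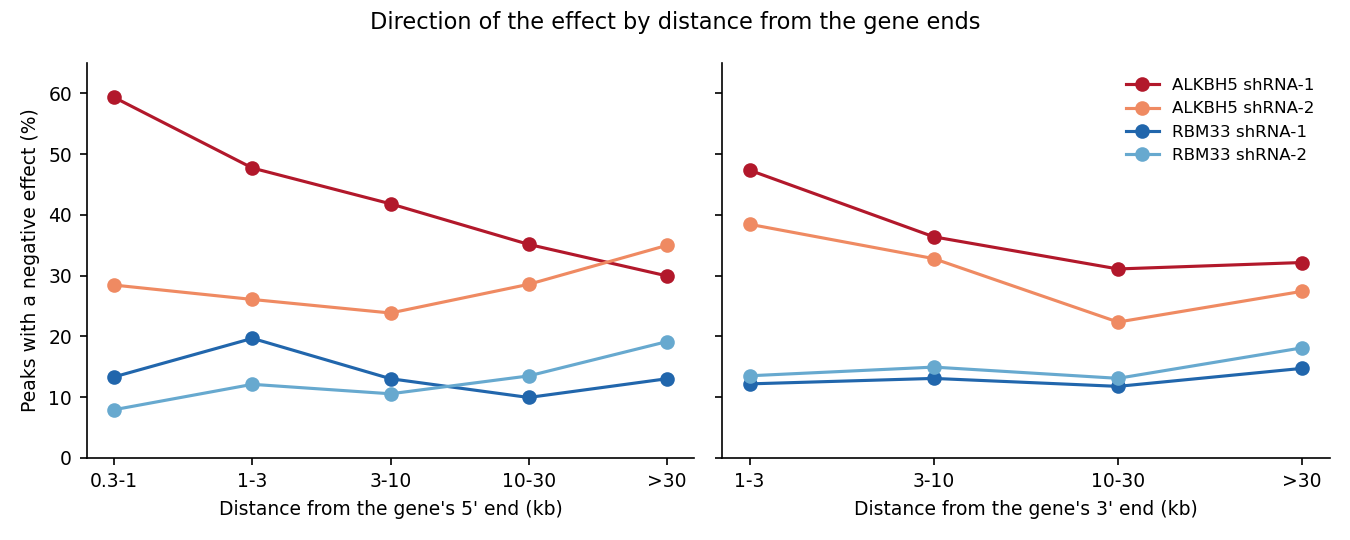
Percent of internal single-block peaks with a negative effect (y axis) by distance band in kb from the gene's 5′ end (left) and 3′ end (right), 1 line for each table. The ALKBH5 shRNA-1 line starts at 59.3% in the band nearest the 5′ end and ends at 29.95%, while the ALKBH5 shRNA-2 line starts at 28.4% and ends at 35.0%.

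In the 100 bases past the 300-base limit, inside the rule, 61.9% of 113 peaks were negative with ALKBH5 shRNA-1, and in the 100 bases before it, outside the rule, 67.5% of 154. With ALKBH5 shRNA-2 the values were 17.8% of 107 peaks inside and 30.5% of 151 outside. In the 100 bases on either side of the 3′ limit, 48.5% of 103 peaks inside and 53.8% of 117 outside were negative with ALKBH5 shRNA-1. With ALKBH5 shRNA-2 they were 28.6% of 168 inside and 43.2% of 169 outside.

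Several internal peaks often lay in the same gene. A single region was found in 2616 of the 6749 host genes, at least 5 regions in 1136 and at least 10 in 223. Of genes with at least 2 peaks in the ALKBH5 shRNA-1 table, 722 of 1732 held positive peaks only, 305 held negative peaks only and 705 held peaks of both signs. With ALKBH5 shRNA-2 these were 1218, 340 and 1067 of 2625 genes. With RBM33 shRNA-1 they were 143, 11 and 15 of 169 genes, and with RBM33 shRNA-2 they were 256, 18 and 35 of 309.

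KMT2D, a histone H3 lysine 4 methyltransferase, held the most regions, 36, on chromosome 12 from 49018978 to 49060794 (hg38, minus strand). Its peaks lay between 8612 and 39501 bases from the gene's 5′ end. They were positive in 17 of 20 cases with ALKBH5 shRNA-1 (median 1.01), in 25 of 26 with ALKBH5 shRNA-2 (median 1.30), and in all 11 with RBM33 shRNA-1 (median 1.49) and all 13 with RBM33 shRNA-2 (median 1.57). DIDO1, which encodes the death inducer obliterator, and SRRM2, a scaffold protein of nuclear speckles, held 29 regions each. AHNAK, a giant scaffold protein, held 28, and SRCAP, the ATPase of a histone-exchange complex, held 27. The exons of these genes add up to between 12969 (SRRM2) and 21502 bases (KMT2D) in the deposited table. AHNAK had 8 peaks with ALKBH5 shRNA-1 and 23 with ALKBH5 shRNA-2, of which 1 and 5 were negative. The RBM33 tables listed 0 and 2 internal single-block peaks in AHNAK. SRCAP had 11 and 10 peaks in the ALKBH5 tables and 6 and 9 in the RBM33 tables, and 1 of these 36 was negative.

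**Figure D3:**
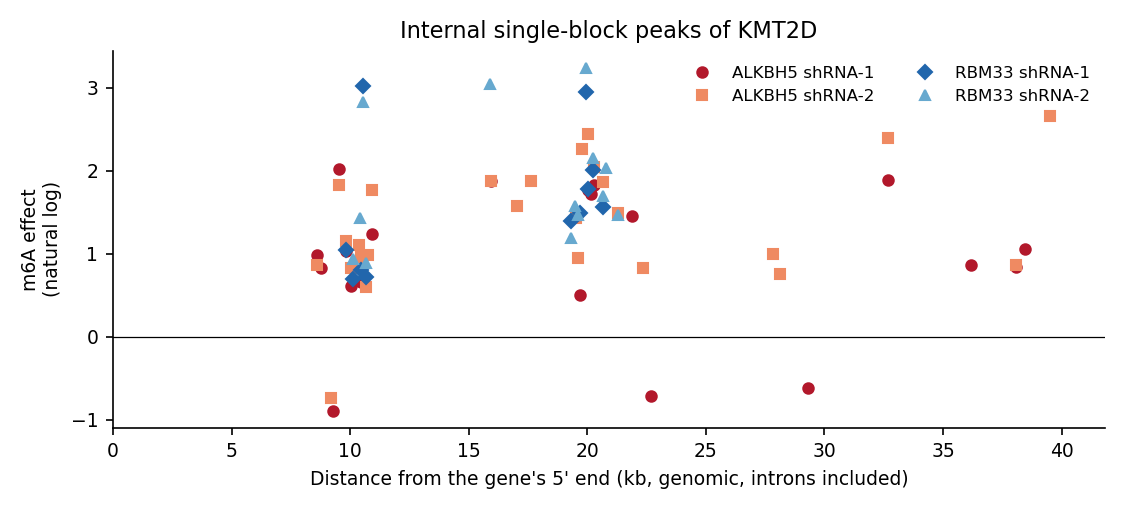
m6A effect (natural log of shRNA over scramble) of each internal single-block peak of KMT2D against its distance in kb from the gene's 5′ end along the genome, introns included; colours and symbols mark the 4 tables. Nearly all points lie above 0, and the negative ones, down to -0.89, come from the ALKBH5 tables.

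Among the internal single-block peaks, the highest and lowest effects of each table came from different genes, except at PGK1. With ALKBH5 shRNA-1 the highest effects in the authors' deposited tables after PGK1 were 4.42 in the zinc finger gene ZNF609, 4.28 in the nuclease gene DNASE1 and 4.25 in the histone methyltransferase gene KMT2B. The lowest were -4.63 in POLRMT, the mitochondrial RNA polymerase, -4.44 in GPN2, -4.43 in the condensin gene NCAPH2 and -4.41 in SPEG. With ALKBH5 shRNA-2 the highest after PGK1 were 4.13 in the transcription factor gene GATA2, and 4.06 in both ZNF629 and GLYR1. The lowest were -3.74 in CDX2, -3.16 in the ubiquitin ligase gene TRIM65, -3.00 in the growth factor gene IGF2 and -2.96 in FAM83G.

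Among the internal single-block peaks of the RBM33 tables no effect was below -2.41. With RBM33 shRNA-1 the highest effects after PGK1 were 4.17 in ING2, 4.06 in AFMID and 3.93 in SRPK1, a kinase of splicing factors, and the lowest were -2.41 in TCEAL3, -1.97 in the aquaporin gene AQP6 and -1.95 in KIAA1328. With RBM33 shRNA-2 the highest after PGK1 were 4.55 in the chaperone gene HSP90AB1, 4.25 in ZBTB45 and 3.95 in OBSL1, and the lowest were -2.20 in RIN2, -2.13 in TBX3, -2.08 in ASAP3 and -1.89 in MBD5. Such folds were often exact whole numbers, as in ZNF609 (83-fold) and KMT2B (70-fold). Among peaks with an absolute effect of at least 3, the fold or its inverse was whole within a relative 0.0001 for 64.3% of 112 peaks with ALKBH5 shRNA-1, 55.8% of 77 with ALKBH5 shRNA-2, 55.6% of 27 with RBM33 shRNA-1 and 56.7% of 30 with RBM33 shRNA-2. Between an absolute effect of 0.5 and 1 this held for 1.59%, 1.30%, 0.330% and 1.25% of the peaks. The read depth behind a peak is unknown.

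The ALKBH5 and RBM33 tables have scramble groups of their own, so their regions can be set against each other, while the tables of 1 target share a scramble group and are given side by side only. Of 17217 regions in the ALKBH5 tables and 2792 in the RBM33 tables, 703 were shared, which is 4.08% of the first and 25.2% of the second. In 606 of these the effects were positive for both targets, in 55 negative for both, in 41 opposite, and in 1 the tables of 1 target disagreed in sign. A total of 16652 of the 19306 regions (86.3%) were listed in 1 table, against 83.9% of 12971 regions merged in the same way from the listed peaks that are not internal single-block peaks; the difference was not tested. Opposite effects, chosen as examples after their values were seen, were listed in ADGRL1, with -1.99 for ALKBH5 shRNA-1 and 1.04 for RBM33 shRNA-2, and in NUDCD3, with 2.05 for ALKBH5 shRNA-2 and -1.53 for RBM33 shRNA-2.

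In 55 regions a peak was listed in all 4 tables, 49 of them positive in each and 6 negative in each. The region with the largest effects lay in PGK1, a glycolytic kinase, at chrX:78104169-78104368 (hg38). Its effects were 5.99 with ALKBH5 shRNA-1, 6.37 with ALKBH5 shRNA-2, 8.60 with RBM33 shRNA-1 and 8.73 with RBM33 shRNA-2, with authors' p-values between 7.88e-18 and 1.72e-11. This region counts as internal because the deposited table draws PGK1 from far upstream, which puts it 193430 bases from the 5′ end. In RefSeq (GRCh38.p14) PGK1 starts at base 78104248, inside the region, and the 79 bases of the region before that start held 0 DRACH motifs and 77.2% G or C. The region is thus at a start by the RefSeq annotation and internal by the other.

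MBD6, a protein with a methyl-CpG-binding domain, followed at chr12:57526722-57526771 with effects of 3.18, 3.66, 3.06 and 3.43. MAT2A makes S-adenosylmethionine, the methyl donor of the m6A writers. Its region at chr2:85542637-85542736 had effects of 2.64, 3.13, 2.13 and 2.81. KMT2D held neighbouring regions, at chr12:49040570-49040869 with 1.77, 2.44, 2.94 and 3.239, and at chr12:49040420-49040569 with 1.83, 2.05, 2.00 and 2.16. The ribosomal protein gene RPL27A, CAB39 (a scaffold of the LKB1 kinase), NCAPH2, FBXW2, the rRNA-processing gene RRP7A, LARP1 (a regulator of ribosomal protein mRNAs) and the spliceosomal helicase gene SNRNP200 had effects between 1.06 and 2.94. NCAPH2 thus held a region positive in all 4 tables besides its separate peak of -4.43.

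The regions negative in all 4 tables lay in 6 genes. IP6K2, an inositol hexakisphosphate kinase, had effects of -1.27, -1.31, -1.17 and -1.03 at chr3:48693807-48694056. INF2, a formin that shapes actin, had -0.98, -1.04, -1.14 and -1.55 at chr14:104704106-104704355. The other genes were AGAP3, PIN4, the dynactin gene DCTN5 and the histone H3 lysine 36 methyltransferase gene NSD1, with effects from -2.16 (AGAP3, ALKBH5 shRNA-1) to -0.56. A different NSD1 peak, 163130 bases from the 5′ end, had effects of 3.87 and 2.89 in the ALKBH5 tables.

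**Figure D4:**
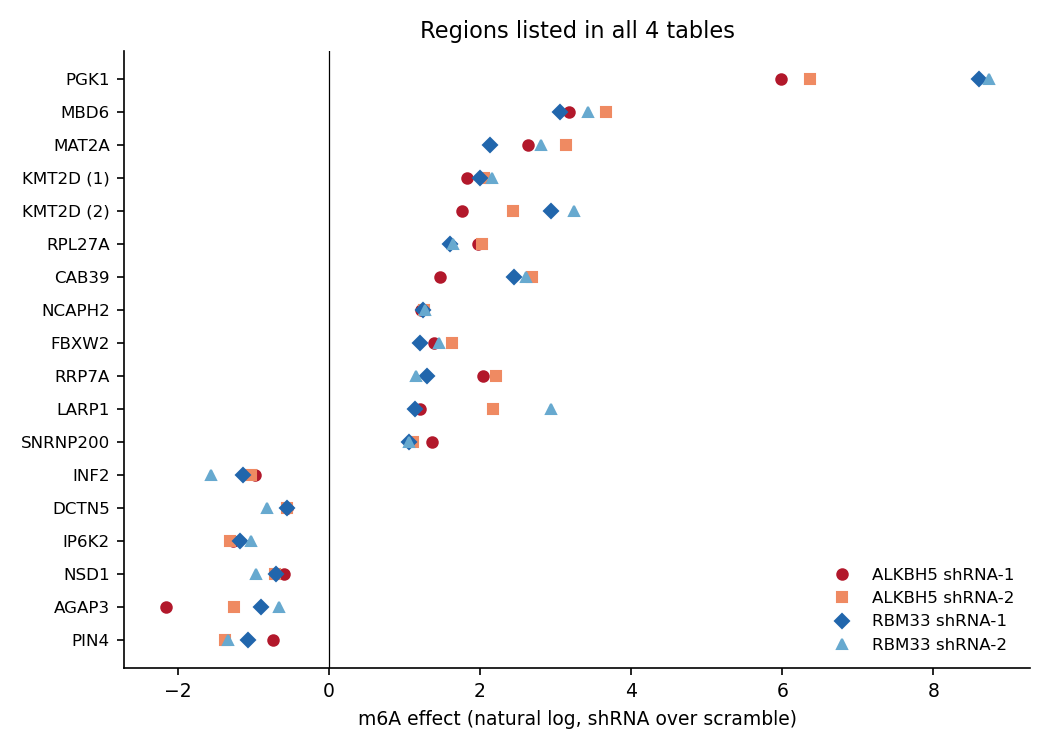
m6A effects (x axis, natural log of shRNA over scramble) in the 4 tables for the 12 regions with the largest smallest effect among those listed in all 4 tables, and for the 6 regions negative in all 4; each row is a region, and KMT2D has 2. PGK1 stands apart at 5.99 to 8.73, the other positive regions lie between 1.06 and 3.66, and the negative ones between -2.16 and -0.56.

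The gene lists below were chosen with earlier results known, and describe the peaks by role. Signs in a list are read against the negative share of all internal single-block peaks. This was 36.6% with ALKBH5 shRNA-1, 30.5% with ALKBH5 shRNA-2, 12.9% with RBM33 shRNA-1 and 14.8% with RBM33 shRNA-2. No difference from it was tested. Of 30 genes of the m6A machinery, 26 held an internal single-block peak, against 6749 of 14968 listed protein-coding genes (45.1%). Their peaks were positive in 34 of 45 cases with ALKBH5 shRNA-1, 53 of 69 with ALKBH5 shRNA-2, 2 of 2 with RBM33 shRNA-1 and 8 of 8 with RBM33 shRNA-2. The negative share was thus 24.4% and 23.2% in the ALKBH5 tables. METTL3, the catalytic writer, had a peak at 1.02 with ALKBH5 shRNA-1 and peaks at 0.80, 1.04, 1.83 and 2.01 with ALKBH5 shRNA-2. Its partner METTL14 had peaks of both signs with ALKBH5 shRNA-2, at 0.97, -0.68, -0.995 and -1.13. YTHDC1, the nuclear reader, had a region at 1.79 and 1.29 in the ALKBH5 tables. HNRNPA2B1, an RNA-binding protein linked to m6A, reached 2.36 with ALKBH5 shRNA-1. ALKBH5 itself held 2 peaks with ALKBH5 shRNA-1, at -1.81 and -1.03, and 3 with ALKBH5 shRNA-2, from 1.00 to 1.74. RBM33 held 6 and 10 peaks in the ALKBH5 tables, 0 with RBM33 shRNA-1 and 2 with RBM33 shRNA-2, of which the last were at 0.65 and 0.78.

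Among 33 regulators of mTORC1, the kinase complex that couples growth to nutrients, 19 held internal peaks, with 17 of 27 positive in the ALKBH5 shRNA-1 table and 24 of 32 in the ALKBH5 shRNA-2 table. RPTOR, the defining subunit of the complex, had 1 region at 2.94 and 2.89 in the ALKBH5 tables. RHEB, the GTPase that activates the complex, had a peak at -2.67 with ALKBH5 shRNA-1, and MTOR, the kinase, had 1 at 1.81. DDIT4, a stress-induced inhibitor of mTORC1, had 1 peak of -0.57 with ALKBH5 shRNA-1 and another of 0.65 with ALKBH5 shRNA-2. Of 35 autophagy genes, 16 held peaks. ATG3, an enzyme of LC3 conjugation, had 1 at 2.18 (ALKBH5 shRNA-2), and UVRAG had a region at -1.69 with ALKBH5 shRNA-1 and -0.84 with RBM33 shRNA-2.

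Of the lists, chromatin enzymes and splicing genes had the largest shares of genes with an internal peak: 44 of 47 chromatin enzymes (93.6%) and 33 of 36 splicing and speckle genes (91.7%). Chromatin enzyme peaks were positive in 133 of 180 cases with ALKBH5 shRNA-1, 185 of 232 with ALKBH5 shRNA-2, 22 of 26 with RBM33 shRNA-1 and 43 of 51 with RBM33 shRNA-2. Their negative shares were 26.1%, 20.3%, 15.4% and 15.7%, against 36.6%, 30.5%, 12.9% and 14.8% of all internal single-block peaks. Large single values were 4.11 in the remodeller gene CHD3 (ALKBH5 shRNA-1) and 2.85 in SON, a speckle protein (ALKBH5 shRNA-1). In cell cycle, MYC and p53 genes, 21 of 66 peaks were negative with ALKBH5 shRNA-1 (31.8%) and 35 of 70 with ALKBH5 shRNA-2. The C2H2 zinc finger genes had 145 of 371 (39.1%), 262 of 587 (44.6%), 10 of 36 (27.8%) and 21 of 76 (27.6%) negative peaks. In squamous and adhesion genes, 12 of 20 listed genes held peaks, the highest being 3.81 in DSP, the desmosomal protein desmoplakin (RBM33 shRNA-2).

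The authors also deposited the methylated fraction of peaks in shRNA and scramble cells, and 224 of the 7704 internal peaks with ALKBH5 shRNA-1, 47 with ALKBH5 shRNA-2, 3 with RBM33 shRNA-1 and 3 with RBM33 shRNA-2 overlapped a peak of those tables. The direction was the same in 220, 45, 3 and 3 of them, but the measures rest on the same libraries. In the authors' deposited table for ALKBH5 shRNA-1, the fraction was 0.688 in shRNA cells and 0.409 in scramble cells at the median of the 144 rising peaks, and 0.602 and 0.819 at the median of the 80 falling ones. At PGK1 the fraction in shRNA cells was 0.448 (ALKBH5 shRNA-1), 0.579 (ALKBH5 shRNA-2), 0.724 (RBM33 shRNA-1) and 0.617 (RBM33 shRNA-2). In the matching scramble cells it was 0.120, 0.0619, 0.0198 and 0.0203. The ALKBH5 shRNAs share a scramble group, but the measured stretches of chromosome X differed. They were 78104219-78104368 with ALKBH5 shRNA-1, 78104219-78104318 with ALKBH5 shRNA-2 and 78104269-78104318 with both RBM33 shRNAs. RUVBL1, a DNA helicase of chromatin complexes, had 0.631 in ALKBH5 shRNA-1 cells and 0.124 in scramble cells. ATF3, a stress-induced transcription factor, had 0.867 and 0.471. SOX4, a developmental transcription factor, went the other way, with 0.703 in ALKBH5 shRNA-1 cells and 0.879 in scramble cells. GPR107 likewise had 0.643 in RBM33 shRNA-1 cells and 0.847 in scramble cells.

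RNA levels of the host genes were examined next. Libraries held between 4493849 and 6733017 reads in 21797 listed genes, and 1 read was worth 0.143 to 0.220 CPM (read counts scaled to a common library size). Among squamous markers, EGFR was at 31.0 to 52.0 CPM and ITGB4 at 0.21 to 4.01 CPM, while KRT5, KRT14, KRT6A, KRT17 and TP63 have no value in the table used here. Fibroblast markers had values for 6 of 7 genes and summed to 26.9 to 39.6 CPM, leukocyte markers for 2 of 6 with 0.511 to 4.24 CPM, and endothelial markers for 2 of 5 with 1.495 to 5.47 CPM. In such bulk libraries, fewer cells of a type and less RNA per cell cannot be told apart. ALKBH5 shRNA-1 libraries had 84.7 and 84.8 CPM of ALKBH5 RNA, and ALKBH5 shRNA-2 libraries had 75.1 and 89.6 CPM, against 108.8, 131.7 and 123.3 CPM with the scramble of its set, a change of -0.53 on the log2(CPM + 1) scale (SE 0.08, limma adjusted p = 9.11e-05). RBM33 RNA was at 191.4 to 214.4 CPM in the libraries labelled RBM33 shRNA and at 207.2 to 227.1 CPM in the RBM33 scramble libraries, a log2 difference of -0.10 (SE 0.06, limma adjusted p = 0.272), so RBM33 RNA does not bear out the label of these libraries.

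Of 6396 tested hosts of ALKBH5-table peaks, 700 rose (10.9%) and 731 fell (11.4%) over the ALKBH5 shRNAs, against 7.93% and 7.18% of all 18227 tested genes (limma, adjusted p under 0.05). Of 1965 tested hosts of RBM33-table peaks, in the libraries labelled RBM33 shRNA 313 rose (15.9%) and 246 fell (12.5%), against 8.5% and 9.25% of all tested genes. The host genes had a higher RNA level, with a median of 41.8 CPM for the ALKBH5 tables and 50.02 CPM for the RBM33 tables, against 15.8 CPM over all tested genes; the part of RNA level in these shares was not tested. Median log2 changes were -0.01 and 0.01 in hosts, against 0.01 and -0.01 over all tested genes. Of 6739 tested hosts of any peak, 102 (1.51%) had a higher and 83 (1.23%) a lower change with ALKBH5 than with RBM33 shRNA, against 2.01% and 0.686% of all tested genes. These 185 hosts in all became 2 without the mean-variance trend in limma, and 85 without replicate 2 of the RBM33 scramble. Without replicate 1 of the ALKBH5 scramble the number of changed ALKBH5 hosts was 916 instead of 1431.

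Host RNA was then read by the direction of the peaks. In the ALKBH5 shRNA-1 table, 158 of 1339 hosts with negative peaks only rose (11.8%) and 100 fell (7.47%), while 239 of 2160 hosts with positive peaks only rose (11.1%) and 330 fell (15.3%). The median log2 RNA change with ALKBH5 shRNA-1 was 0.06 in the hosts with negative peaks only and -0.04 in those with positive peaks only, against 0.00 in all tested genes. In the ALKBH5 shRNA-2 table the shares were 8.01% up and 10.5% down for 1348 hosts with negative peaks only, and 12.3% up and 11.6% down for 2828 with positive peaks only. In the RBM33 shRNA-1 table, 32 of 131 hosts with negative peaks only rose (24.4%) and 4 fell (3.05%). Their median log2 change with RBM33 shRNA-1 alone was 0.16, against 0.00 in 836 hosts with positive peaks only. In the RBM33 shRNA-2 table, 36 of 225 hosts with negative peaks only rose (16.0%) and 13 fell (5.78%). Their median with RBM33 shRNA-2 alone was 0.11, against -0.03 in 1171 hosts with positive peaks only. RNA levels differed as well: in the above order of tables, hosts with positive peaks only had medians of 57.3, 46.6, 69.9 and 56.5 CPM. Hosts with negative peaks only had medians of 28.6, 29.0, 28.0 and 29.8 CPM. The part of RNA level in the shares that rose or fell was not tested. Across single peaks the Spearman correlation of effect and host RNA change was between -0.09 (ALKBH5 shRNA-1, 7701 peaks) and 0.01 (RBM33 shRNA-2, 1918 peaks). The sources used here do not say whether the m6A effects were scaled to RNA level, so the 2 measures may share libraries, and these differences were not tested.

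Among hosts of ALKBH5-table peaks, those with the largest RNA changes over the ALKBH5 shRNAs rose by more than they fell. ANKRD1, a muscle and stress gene, was at 44.3 to 59.2 CPM with the ALKBH5 shRNAs, against 0.514 to 1.54 CPM in scramble libraries, and rose by 4.79 in log2 (SE 0.21, limma adjusted p = 5.25e-14). Its internal peaks were at -1.15 and -0.66 in the ALKBH5 tables. AMH, the anti-Müllerian hormone gene and host of MIR4321, was at 51.8 to 65.8 CPM, against 4.30 to 6.03 CPM, and rose by 3.26 (SE 0.15, limma adjusted p = 3.34e-13). Its peaks were positive, from 1.20 to 2.65, in the ALKBH5 tables. DNAH17, an axonemal dynein gene, rose by 2.49, FOS by 2.098 and HSPA6 by 3.46, with limma adjusted p between 9.65e-13 and 4.10e-05. In the scramble libraries FOS was at only 0.307 to 1.70 CPM and HSPA6 at 0 to 1.13 CPM. The size of the changes in FOS and HSPA6, and in ANKRD1 with its similarly low scramble values, therefore depends on the 1 CPM added before the logarithm. HSPA6 has close copies in the HSP70 family, so its reads may be split uncertainly. In the libraries labelled RBM33 shRNA the log2 changes were 4.72 in ANKRD1, 3.57 in AMH, 2.43 in DNAH17, 1.75 in FOS and 2.03 in HSPA6.

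The lowest among hosts of ALKBH5-table peaks were BASP1 (-1.46), TXNIP (-1.34), LOX (-1.10), EPHX2 (-1.08) and INHBE (-1.06) on the log2 scale, with limma adjusted p between 1.72e-10 and 0.00728. TXNIP, a thioredoxin-binding inhibitor of glucose uptake, was at 93.6 to 110.1 CPM with the ALKBH5 shRNAs, against 248.0 to 278.4 CPM in scramble libraries, and the groups did not overlap. Its internal peak was at 1.37 with ALKBH5 shRNA-2. LOX, which cross-links collagen, had a peak at 1.59 and EPHX2 a peak at -0.89 with ALKBH5 shRNA-2. BASP1 was low, at 1.82 to 4.24 CPM, against 5.31 to 12.4 CPM, and its change lost the threshold without replicate 2 of the ALKBH5 scramble (log2 -1.21). In the libraries labelled RBM33 shRNA the log2 changes were -2.06 in BASP1, -1.41 in TXNIP, -0.92 in LOX, -0.88 in EPHX2 and -1.28 in INHBE.

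In the libraries labelled RBM33 shRNA the highest changes among hosts of RBM33-table peaks were in HSPA6 (2.03), MBD6 (1.74), NBPF14 (1.32), HCFC1 (1.21) and SLC38A7 (1.20), with limma adjusted p between 6.08e-12 and 0.000823. MBD6, which also held a peak positive in all 4 tables, was at 33.0 to 46.3 CPM in those libraries, against 8.25 to 14.2 CPM in the RBM33 scramble libraries. HCFC1, a transcriptional cofactor, was at 206.9 to 218.7 CPM, against 87.9 to 98.3 CPM, and its peaks in the RBM33 tables were between 0.84 and 1.86. NBPF14 belongs to a family of near-identical copies, so its reads are uncertain. HSPA6 was at only 0 to 1.29 CPM in the RBM33 scramble libraries, so the size of its change is uncertain too. The lowest among hosts of RBM33-table peaks were TXNIP (-1.41), BTBD2 (-1.31), HAGHL (-1.07), TMEM129 (-1.07) and HSPA5 (-1.06), with limma adjusted p between 2.20e-11 and 0.0187. HSPA5, the main chaperone of the endoplasmic reticulum, was at 419.8 to 484.7 CPM, against 886.1 to 1004 CPM, and its 7 internal peaks in the RBM33 tables were all positive (0.65 to 1.54). HAGHL lost the threshold without the mean-variance trend, and without RBM33 shRNA-1 replicate 2 (-0.66) or RBM33 scramble replicate 1 (-0.80).

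The genes with peaks in all 4 tables changed in RNA to different degrees. PGK1 RNA was at 419.1 to 475.1 CPM with the ALKBH5 shRNAs, against 240.3 to 248.4 CPM in the ALKBH5 scramble libraries, and at 351.9 to 370.0 CPM in the libraries labelled RBM33 shRNA, against 284.6 to 317.0 CPM in the RBM33 scramble libraries. It rose by 0.86 (SE 0.06, limma adjusted p = 1.74e-09) and by 0.28 (SE 0.06, limma adjusted p = 0.00239) in log2 units. MAT2A RNA rose by 1.06 (SE 0.09, limma adjusted p = 2.19e-08) and by 0.86 (SE 0.09, limma adjusted p = 2.34e-07). KMT2D RNA rose by 0.58 (SE 0.07, limma adjusted p = 6.99e-06) and by 1.08 (SE 0.07, limma adjusted p = 7.78e-11). CAB39, LARP1, SNRNP200, INF2 and AGAP3 did not pass the test in either set, with log2 changes between -0.15 and 0.12. DIDO1 rose by 0.98 and 0.83, and SRCAP by 0.40 and 0.62.

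**Figure D5:**
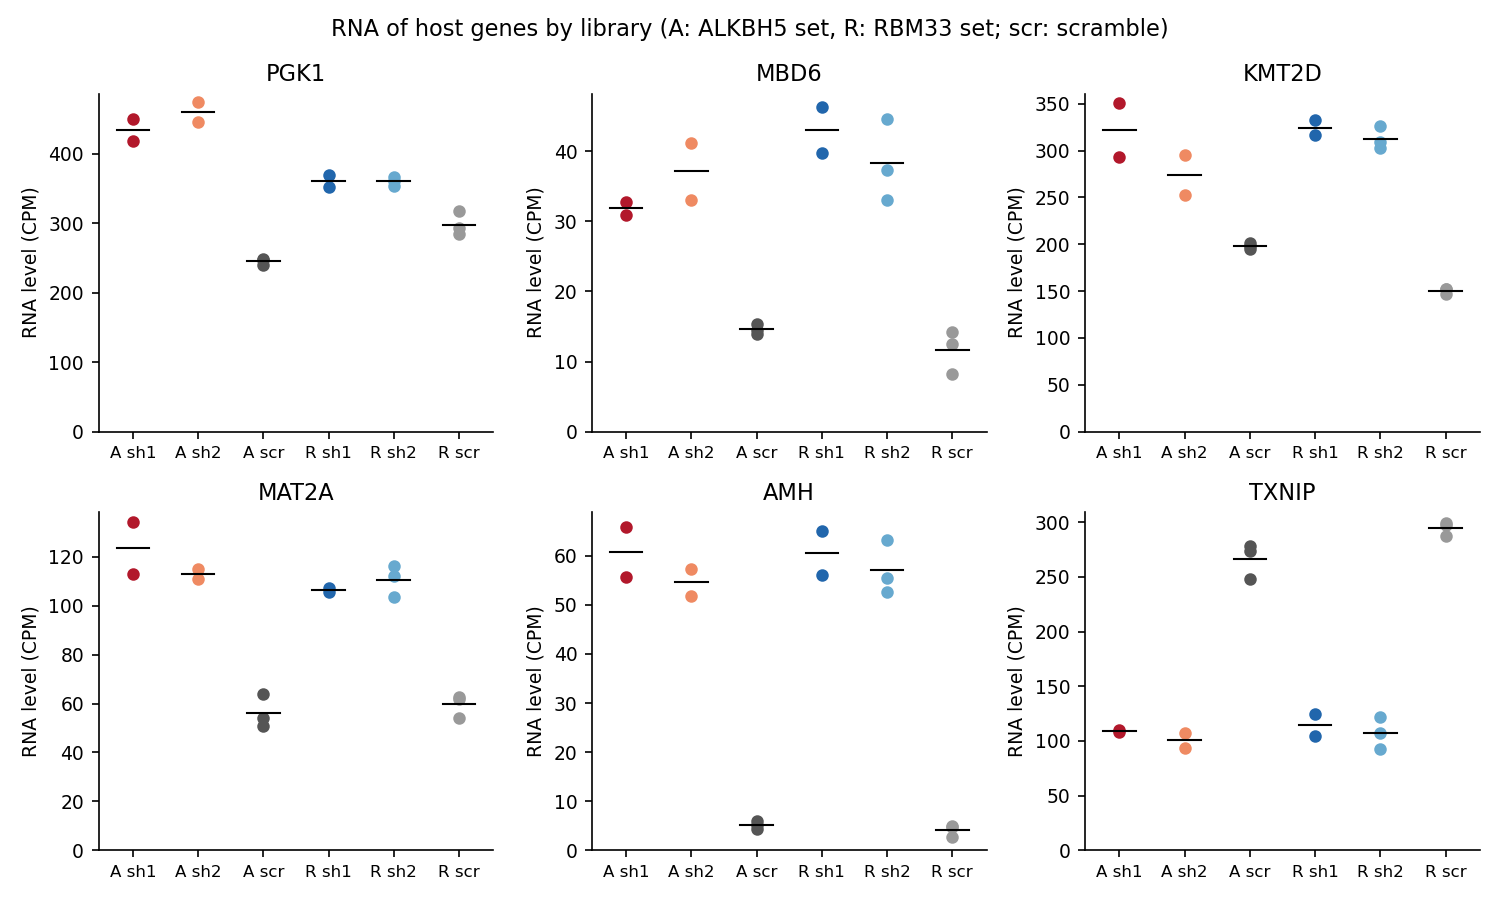
RNA level in CPM (y axis from 0) of 6 host genes in each of the 15 RNA-seq libraries; points are libraries, and black bars are group means. PGK1, MBD6, KMT2D, MAT2A and AMH were higher in each shRNA library than in any scramble library of its set, and TXNIP was lower.

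The counts by list are read against 7.93% of all tested genes that rose and 7.18% that fell over the ALKBH5 shRNAs. In the libraries labelled RBM33 shRNA these shares were 8.5% and 9.25%. Tested hosts as a whole, to which the counted genes belong, had higher shares. They were 10.9% and 11.4% for hosts of ALKBH5-table peaks, and 15.9% and 12.5% for hosts of RBM33-table peaks. Hosts among the chromatin enzymes rose in 9 of 44 cases (20.5%) and fell in 0 with the ALKBH5 shRNAs, and in the libraries labelled RBM33 shRNA 17 of 23 rose (73.9%) and 0 fell. Their median log2 changes were 0.08 and 0.40. Splicing and speckle hosts rose in 11 (34.4%) and fell in 4 (12.5%) of 32 cases with ALKBH5 shRNA, and in the libraries labelled RBM33 shRNA 10 of 13 rose and 0 fell. Cell cycle, MYC and p53 hosts rose in 4 and fell in 9 of 25 cases with ALKBH5 shRNA. Of mTORC1 regulators, 4 rose and 1 fell of 19 with ALKBH5 shRNA: RPTOR rose by 0.57 (SE 0.09, limma adjusted p = 0.000169), and DDIT4 fell by 0.84 (SE 0.07, limma adjusted p = 1.38e-08). Of m6A machinery hosts, 4 rose and 1, ALKBH5, fell of 25 with ALKBH5 shRNA. Autophagy hosts rose in 1 case and fell in 2 of 16, and C2H2 zinc finger hosts rose in 20 (6.83%) and fell in 17 (5.80%) of 293, both below the shares of all tested genes. In the libraries labelled RBM33 shRNA 13 of 75 C2H2 zinc finger hosts rose (17.3%) and 2 fell.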

How the data were processed

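The submitters' processing notes name cutadapt 1.18, HISAT2 2.1.0, featureCounts of Subread 1.6.4, edgeR 3.24.3 and, with no version, DESeq2, with hg38 as the build; which program called the peaks is not stated there. The authors deposited m6A effects as natural log values with a p-value per peak, methylated fractions with log2 ratios and adjusted p-values, and RNA as a normalized signal in CPM. Columns belonging to no sample numbered 0. Whole reads were recovered for 100% of CPM values within 0.1 read; intervals cover counting error only, and 3 RNA-seq libraries were not analysed here. Replicate pairs differed by a chi-square per degree of freedom of 2.90 to 8.04, so none were merged.

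Host RNA was tested in R 4.3.3 by limma 3.58.1 on log2(CPM + 1), trend included, a scale that understates changes of low genes. The fit held 6 group means (9 residual degrees of freedom) and 18227 genes averaging at least 1 CPM, with Benjamini-Hochberg adjustment. The fit was tested on simulated data. Named peaks are the 4 highest and 4 lowest effects per table, the 12 regions with the largest smallest effect in all 4 tables, the 5 genes with most regions, at most 4 peaks per gene list and at most 5 overlaps per fraction table; some items the rules name are not reported here; named RNA hosts are the 5 highest and 5 lowest called per target. Members and lists were chosen with earlier results of these data known. Alternatives covered pseudocount, filters, normalization, trend, replicate block, left-out libraries, distance limits, thresholds and overlap.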

Additional observations from a re-analysis of the deposited data

Results flagged for a closer look

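In 5 of 34 named host genes the RNA change with ALKBH5 shRNA differed from that in the libraries labelled RBM33 shRNA, by limma's test of the difference itself. Over all tested genes, 2.01% had a higher and 0.686% a lower change with ALKBH5 shRNA. The 34 genes were picked for their peaks or RNA changes and include the target ALKBH5, so their count is no estimate for hosts. PGK1 rose more with ALKBH5 shRNA, by 0.59 in log2 (SE 0.09, limma adjusted p = 0.000358). KMT2D rose less with ALKBH5 shRNA than in the libraries labelled RBM33 shRNA, a difference of -0.50 (SE 0.10, limma adjusted p = 0.00578). The difference was -0.59 for NBPF14 (SE 0.11, limma adjusted p = 0.00349) and -0.35 for HCFC1 (SE 0.10, limma adjusted p = 0.0467). ALKBH5 itself differed by -0.47 (SE 0.11, limma adjusted p = 0.0227). None of the 5 differences passed without the mean-variance trend, where limma's adjusted p was 0.0577 for PGK1, 0.119 for KMT2D, 0.101 for NBPF14, 0.190 for HCFC1 and 0.156 for ALKBH5. With 1 of 15 libraries left out, HCFC1 lost the threshold in 14 cases (limma adjusted p from 0.0453 to 0.139) and ALKBH5 in 6 (limma adjusted p from 0.00785 to 0.0796); PGK1, KMT2D and NBPF14 kept it in each. HCFC1 also lost it with no filter on low values (limma adjusted p = 0.0588).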

How the results depend on the processing

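The negative share differed between settings. The settings keep overlapping parts of the same lists and peaks share genes, so no interval is set against these differences. With ALKBH5 shRNA-1 (36.6%) it was 33.9% at absolute effects of at least 1, 33.1% with limits of 1000 and 2000 bases, 39.2% with limits of 100 and 500 bases and 39.6% with 1 peak per gene. With ALKBH5 shRNA-2 (30.5%) it was 17.5%, 29.4%, 31.5% and 33.9% under the same settings, and 27.0% at p-values of at most 0.001. At absolute effects of at least 1 it was 9.88% with RBM33 shRNA-1 and 10.2% with RBM33 shRNA-2, where 1 peak per gene gave 17.4%. Keeping peaks that are internal in the RefSeq span too, a setting chosen after seeing the data, gave 36.3%, 29.98%, 12.3% and 14.9%.

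Changed hosts numbered 1431 (ALKBH5), 559 (RBM33) and 185 (difference between targets). Without the mean-variance trend they were 808, 364 and 2; with 1 library left out, 916 to 1200, 383 to 530 and 85 to 208. For the difference, 8 libraries moved the count by over 1.5 times when left out: ALKBH5 shRNA-1 replicate 1 (116), ALKBH5 shRNA-2 replicate 1 (111), ALKBH5 scramble replicates 1 (98) and 3 (122), RBM33 shRNA-1 replicate 1 (122), and RBM33 scramble replicates 1 (92), 2 (85) and 3 (120). edgeR on whole reads gave 1475, 558 and 190. Deviations of same-numbered libraries correlated weakly (r from -0.13 to 0.06 in the ALKBH5 set and -0.03 to 0.12 in the RBM33 set). In the RBM33 set, r was over 0.1 in 2 of 7 same-numbered pairs and in 1 of 14 others. With 2 or 3 libraries per group this check cannot settle whether the numbers pair libraries. The replicate block gave 1308, 519 and 133, and HCFC1's difference between targets then missed the threshold (limma adjusted p = 0.0722). Of the 49 gene results recomputed, none that had passed the test reversed in a setting run. Both that reversed were near 0 and passed in no setting, each with 1 library left out: INF2 with ALKBH5 shRNA (-0.02, ranging from -0.14 to 0.11) and AGAP3 in the libraries labelled RBM33 shRNA (0.03, ranging from -0.015 to 0.088). Depth per peak is unknown.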
